A study of Mus musculus with 12 samples.

Results

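Respiratory complex I (NADH:ubiquinone oxidoreductase) was followed through the genes whose symbol in the probe annotation of the array starts with Nduf. These were 34 genes, measured by 41 probes, of 16675 named genes on the array, and each gene was represented by the probe with the highest mean log2 intensity over the 12 arrays. Of the 34 genes, 17 encode accessory subunits of the membrane arm, 8 accessory subunits of the matrix arm, 6 core subunits of the matrix arm, 2 assembly factors (Ndufaf1 and Ndufa12l, whose current symbol is Ndufaf2), and 1, Ndufa4, a protein that is now assigned to complex IV. The core subunits of the membrane arm are encoded by mitochondrial DNA and were not analysed here. The 5 further assembly factors that are now called Ndufaf3 to Ndufaf7 carry clone names in the annotation and were therefore counted with the other assembly factors.

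Complex I takes electrons from NADH in the mitochondrial matrix, passes them through flavin and iron-sulfur clusters of its matrix arm to ubiquinone, and pumps protons through its membrane arm. The accessory subunits surround the core and are needed for its assembly and stability. Both organs depend on it, the brain for the energy of neurons and the stomach for acid secretion by parietal cells, which are rich in mitochondria.

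RNA came from the stomach and the brain of male FVB mice aged 6 to 8 weeks that were heterozygous for a transgene with a luciferase gene behind PPAR response elements (PPRE). All 12 arrays came from such mice, mock animals included. Saline was injected into mock animals and 0.2 g/kg of chitosan oligosaccharide, subcutaneously, into treated ones, and organs were collected on day 3. Each of the 4 groups had 3 single-color arrays from independent mice. The sources used here do not state whether a mouse gave both organs. Values are normalized Cy5 intensities on a linear scale. The lowest intensity was 34.3 and the array medians were 47.0 to 47.8, and a gene was taken as above the level of dim probes when its mean lay over 2 times the lowest intensity, which is 68.7. By the mean of all 12 arrays 18 Nduf genes passed this level and 16 did not. With 3 arrays against 3, an exact permutation test cannot give a p under 0.1, so comparisons were tested by limma over all 29922 probes with Benjamini-Hochberg adjustment and a threshold of 0.05.

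The organs carried their own markers. The summed intensity of 13 neuron markers was 6897 to 9775 on mock brain arrays and 707 to 761 on mock stomach arrays, and that of 12 smooth muscle markers was 10904 to 11700 in the mock stomach.

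The 250 bases before the annotated transcription start are shown for the 4 Nduf genes above the dim level with the lowest chitosan-to-mock log2 fold changes in the stomach. They are RefSeq sequences of build GRCm38.p6, written 5′ to 3′ on the strand of the gene, and capitals mark matches to 4 motifs of factors known for nuclear genes of mitochondrial proteins: GCGCANGCG (NRF1), CCGGAAG (ETS factors such as GABPA), AAGATGGCG (YY1) and TNAAGGTCA (estrogen-related receptors), searched on both strands.
Ndufs4, chr13:114388095-114388344, minus strand: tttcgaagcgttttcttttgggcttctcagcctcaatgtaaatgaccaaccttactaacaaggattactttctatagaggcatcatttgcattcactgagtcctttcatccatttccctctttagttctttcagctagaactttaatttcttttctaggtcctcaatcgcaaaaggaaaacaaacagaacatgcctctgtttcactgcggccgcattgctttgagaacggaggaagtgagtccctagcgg
Ndufa12, chr10:94198785-94199034, plus strand: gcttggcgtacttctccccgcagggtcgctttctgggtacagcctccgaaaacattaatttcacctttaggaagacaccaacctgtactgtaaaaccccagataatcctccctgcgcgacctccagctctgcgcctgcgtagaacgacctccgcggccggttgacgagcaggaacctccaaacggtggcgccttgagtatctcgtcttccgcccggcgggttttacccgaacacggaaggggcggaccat
Ndufb4, chr16:37654369-37654618, minus strand: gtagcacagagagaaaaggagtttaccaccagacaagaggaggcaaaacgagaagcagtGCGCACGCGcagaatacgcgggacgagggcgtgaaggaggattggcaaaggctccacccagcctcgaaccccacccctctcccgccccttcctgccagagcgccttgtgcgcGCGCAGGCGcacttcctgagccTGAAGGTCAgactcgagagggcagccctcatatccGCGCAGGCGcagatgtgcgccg
Ndufa5, chr6:24527691-24527940, minus strand, from the upstream one of 2 starts: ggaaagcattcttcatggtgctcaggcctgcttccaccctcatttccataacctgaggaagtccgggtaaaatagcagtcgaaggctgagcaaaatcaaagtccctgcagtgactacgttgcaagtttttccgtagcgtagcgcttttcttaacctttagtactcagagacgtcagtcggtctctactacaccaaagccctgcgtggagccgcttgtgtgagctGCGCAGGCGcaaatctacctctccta
These 4 windows differ in their motifs. Ndufb4 held 3 NRF1 matches and 1 estrogen-related receptor match, Ndufa5 held 1 NRF1 match, and neither Ndufs4 nor Ndufa12 held any of the 4 motifs upstream of its start. Of the 34 genes, 31 had a promoter window of 300 bases (250 before and 50 after the start) in the table. An NRF1 match was present for 6 of 31 Nduf genes (19.4%) against 7.03% of 27025 genes, and a YY1 match for 4 of 31 (12.9%; Ndufs4, Ndufs7, Ndufa9 and Ndufc1, each within the first 50 transcribed bases) against 1.64%. ETS matches occurred in 4 of 31 (12.9%) against 9.93%, and the estrogen-related receptor motif in 1 of 31 against 1.43%. A pair of AGGTCA half-sites in the same direction with 1 base between them is the arrangement that PPAR binds. Exact copies of such a pair were found in 0 of 31 Nduf windows and in 0.0481% of all genes. PPAR sites that depart from these letters were not counted. So rare a match cannot show whether 31 windows differ from those of other genes. The AGGTCA half-site also lies within the estrogen-related receptor motif. The 250 bases before the start were richer in G and C for the Nduf genes, with a median of 58.4% against 52.4% for all promoters. The motif shares were not adjusted for this. Such matches describe letters in these windows only. The genes of 2 of these factors, Nrf1 and Gabpa, had dim probes, with mock stomach means of 48.9 and 47.8.

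The arrays of a group differed from each other for most Nduf genes, and this has to be known before the groups are compared. Of the 18 brighter genes, mock stomach array 2 was the highest of its group for 13 and chitosan stomach array 3 the lowest for 14, where the same arrays were so for 35.7% and 47.8% of 2708 named genes above the same level. In the brain, mock array 3 was the highest for 12 of 18 and chitosan array 3 the lowest for 16 of 18, against 38.1% and 46.3% of named genes. The variation of an Nduf gene over the 12 arrays lay mostly within the groups, with a median of 67.1% of its sum of squares on the log2 scale. The median of the 2708 named genes was 37.0%. By the same level, it was 94.5% for 5 genes of complex III, 55.1% for 4 of complex V and 23.2% for 12 of complex IV. For 4 other complex I assembly factors it was 60.4%, and for 6 other mitochondrial genes 49.0%. Ndufs4 and Ndufa7, with 11.2% and 11.9% within groups, had the smallest shares of the 18, and Ndufa13, at 98.2%, the largest.

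**Figure D1:**
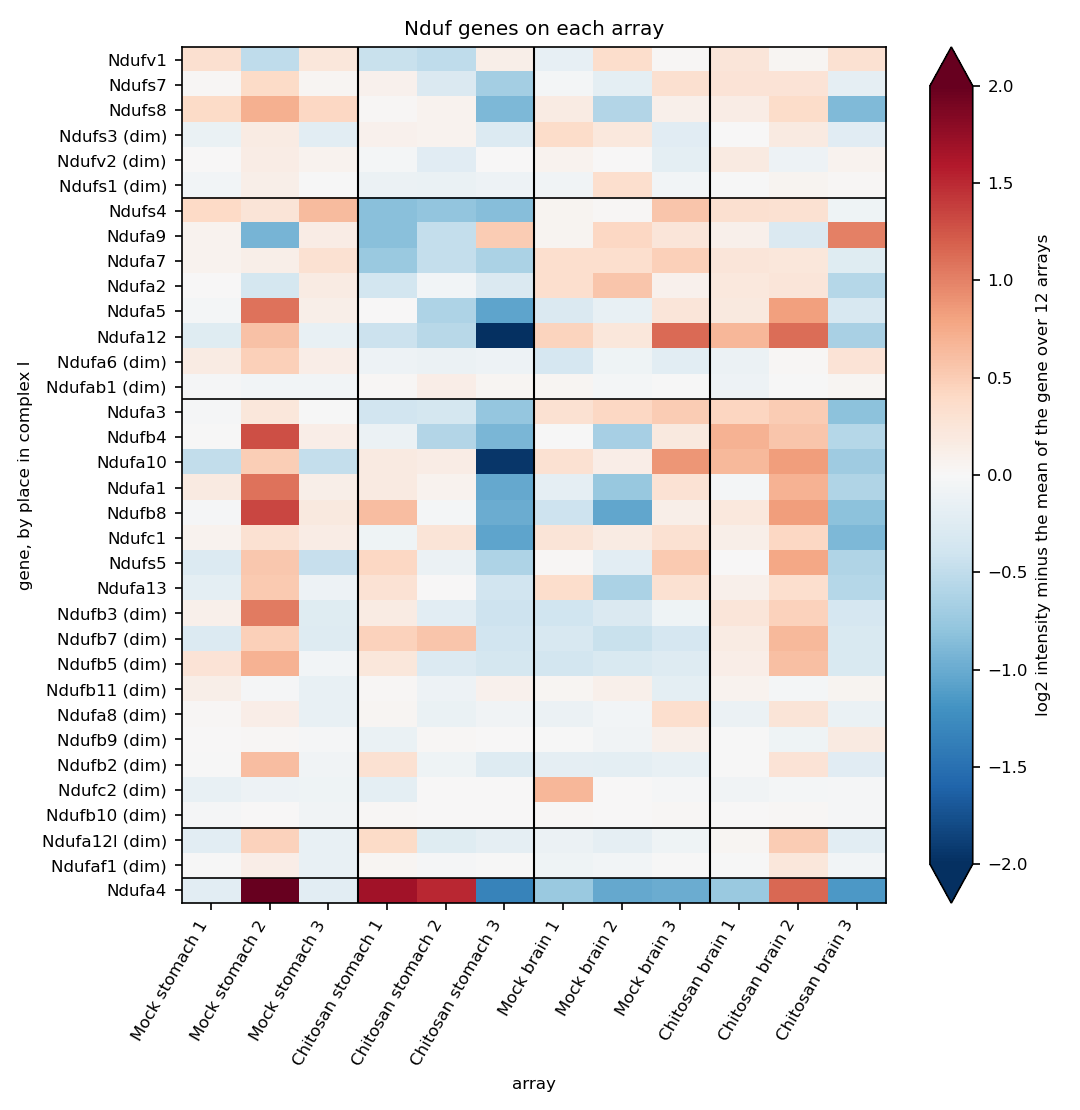
Each row is an Nduf gene and each column an array, and color gives the log2 intensity minus the mean of that gene over the 12 arrays. Rows are grouped from top to bottom as core matrix arm, accessory matrix arm, accessory membrane arm, assembly factors and Ndufa4, and genes marked dim had a mean intensity of 68.7 or less. Mock stomach array 2 is high and chitosan stomach array 3 and chitosan brain array 3 are low for most brighter genes, while Ndufa9 and Ndufv1 run the other way.

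This spread moved with a property of the array itself, the number of distinct intensities among its 29922 values, which was 268 to 947. Chitosan stomach array 3, with 268, had a median deviation of the 18 genes from the group mean of -0.44 on the log2 scale, and mock stomach array 2, with 884, one of 0.34. Chitosan brain array 2, with 947, had 0.48. In 3 of the 4 groups the arrays stood in the same order by both measures, and in the mock stomach arrays 1 and 3, with medians of -0.17 and -0.14, exchanged places. Ndufa9, an accessory subunit beside the ubiquinone site, and Ndufv1, the core subunit that binds NADH and flavin, ran opposite to most others. Within groups, log2 intensity and the log2 number of distinct intensities correlated at -0.95 and -0.74 for these 2 genes. The correlation was positive for 16 of the 18 genes (median 0.84) and for 50.6% of the 2708 named genes (median 0.02). It was weak for Ndufa2 (0.15), Ndufs4 (0.23) and Ndufa7 (0.28). The part of this array property in the comparisons below was not tested beyond the fits with it as a covariate and the fits without single arrays.

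**Figure D2:**
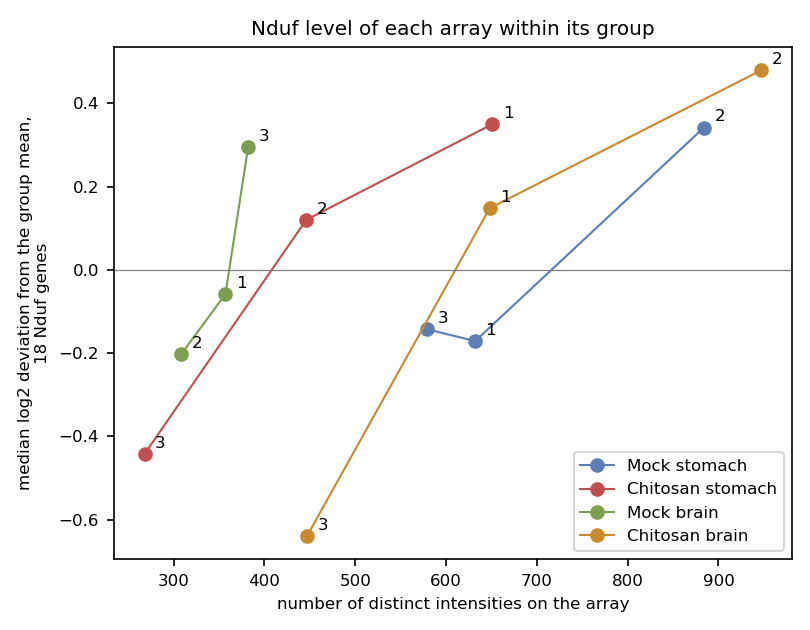
For each array, the number of distinct intensities is on the x axis and the median log2 deviation of the 18 brighter Nduf genes from the mean of their group on the y axis. Digits are the array numbers and lines join the 3 arrays of a group. The value is highest in each group on the array with the most distinct intensities, from 0.30 in the mock brain to 0.48 in the chitosan brain.

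In the stomach, most Nduf genes had lower intensities with chitosan, but none passed the test. The log2 fold change was negative for 26 of 34 genes with a median of -0.18, against 0.01 over all probes, of which 43.3% were negative. By limma 0 of 34 genes and 0% of all probes were called, and at an unadjusted p under 0.05 there were 3 lower genes (Ndufs4, Ndufs8 and Ndufa6) and 0 higher ones, where 3.22% of probes were lower at that limit. The methods' t-test also called 0 of 34 after Benjamini-Hochberg adjustment. All 3 chitosan arrays lay below all 3 mock arrays for 8 of the 34 genes and for 6.07% of named genes. Among the 18 brighter genes this held for 6 and, by the same level, for 10.5% of named genes. At least 2-fold lower were 3 genes (Ndufs4, Ndufa12 and Ndufb4), as were 0.588% of named genes and 3.43% of those above the level. In bulk RNA, fewer cells of a type and less RNA per cell cannot be told apart.

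The matrix arm held the largest differences. Ndufs4, an accessory subunit of the matrix arm whose loss causes Leigh-like disease in mice, was the brightest Nduf gene. Its intensities were 1209, 1092 and 1424 on the mock stomach arrays and 509.5, 530.2 and 507.9 on the chitosan stomach arrays, and the groups did not overlap. The log2 fold change was -1.26 (SE 0.37), with a limma adjusted p of 0.781 from the 6 stomach arrays and 0.066 from a model of all 12 arrays that called 0.317% of probes. In the brain Ndufs4 had 945.7, 932.3 and 1338 in mock and 1139, 1134 and 861.9 in chitosan mice, with groups that overlapped. Its second probe was dim, at 41.0 to 70.7 over the 12 arrays, and had a log2 fold change of -0.19 (SE 0.16) in the stomach.

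Ndufa12, a matrix arm subunit related in sequence to the assembly factor Ndufaf2, had stomach intensities of 166.2, 294.2 and 176.9 in mock and 146.4, 133.6 and 44.0 in chitosan mice. The log2 fold change was -1.11 (SE 0.54). The groups did not overlap, but the single value of chitosan array 3 lay near the background and the difference was -0.29 (SE 0.20) without that array and mock array 2. Ndufa5, a further matrix arm subunit, had 208.1, 450.8 and 231.2 against 215.2, 138.8 and 102.8, with overlap and a log2 fold change of -0.94 (SE 0.53). It was -0.59 without mock array 2 and -0.34 (SE 0.28) without both arrays. Both of its probes were above the dim level, and the second one gave -0.40 (SE 0.32), the same direction at less than the size of the first. Ndufa7 had 698.7, 719.2 and 815.1 in mock and 397.5, 476.8 and 428.1 in chitosan mice. Here the arrays of each group were close together and the groups were apart, with a log2 fold change of -0.78 (SE 0.44) that was -0.79 (SE 0.25) without the 2 arrays.

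The core subunit Ndufs8, which carries iron-sulfur clusters, had stomach intensities of 97.8, 122.8 and 100.2 in mock and 77.0, 79.1 and 40.4 in chitosan mice. The log2 fold change was -0.76 (SE 0.28, limma adjusted p = 0.853), and it was -0.45 without chitosan array 3 and -0.34 (SE 0.12) without that array and mock array 2. Ndufs7, the core subunit with the last iron-sulfur cluster before ubiquinone, had -0.44 (SE 0.30), and Ndufv1 had -0.29 (SE 0.50). The other 3 core subunits measured, Ndufs1, Ndufs3 and Ndufv2, were dim in all groups. Ndufa6, which was above the dim level in the mock stomach only and lies below it by the mean of all arrays, had 69.0, 85.5 and 67.6 against 57.2, 57.0 and 57.7, with a log2 fold change of -0.36 (SE 0.12).

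In the membrane arm, Ndufb4 had stomach intensities of 213.7, 522.4 and 234.9 in mock and 198.1, 142.7 and 113.8 in chitosan mice. The log2 fold change was -1.01 (SE 0.54), and mock array 2 alone was more than 2 times any other array of the organ. Without that array the value was -0.60, and without chitosan array 3 as well it was -0.41 (SE 0.26). All 8 brighter membrane arm genes had negative values in the stomach, from -1.01 for Ndufb4 to -0.04 for Ndufs5, with a median of -0.52. All 6 brighter accessory genes of the matrix arm were negative with a median of -0.86, and so were the 3 brighter core genes with a median of -0.44. Over the 2708 named genes above the same level the median was 0.00 and 50.4% were negative. The 16 dim genes had a median of -0.05, but near the floor of the arrays a fold change is compressed toward 0.

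**Figure D3:**
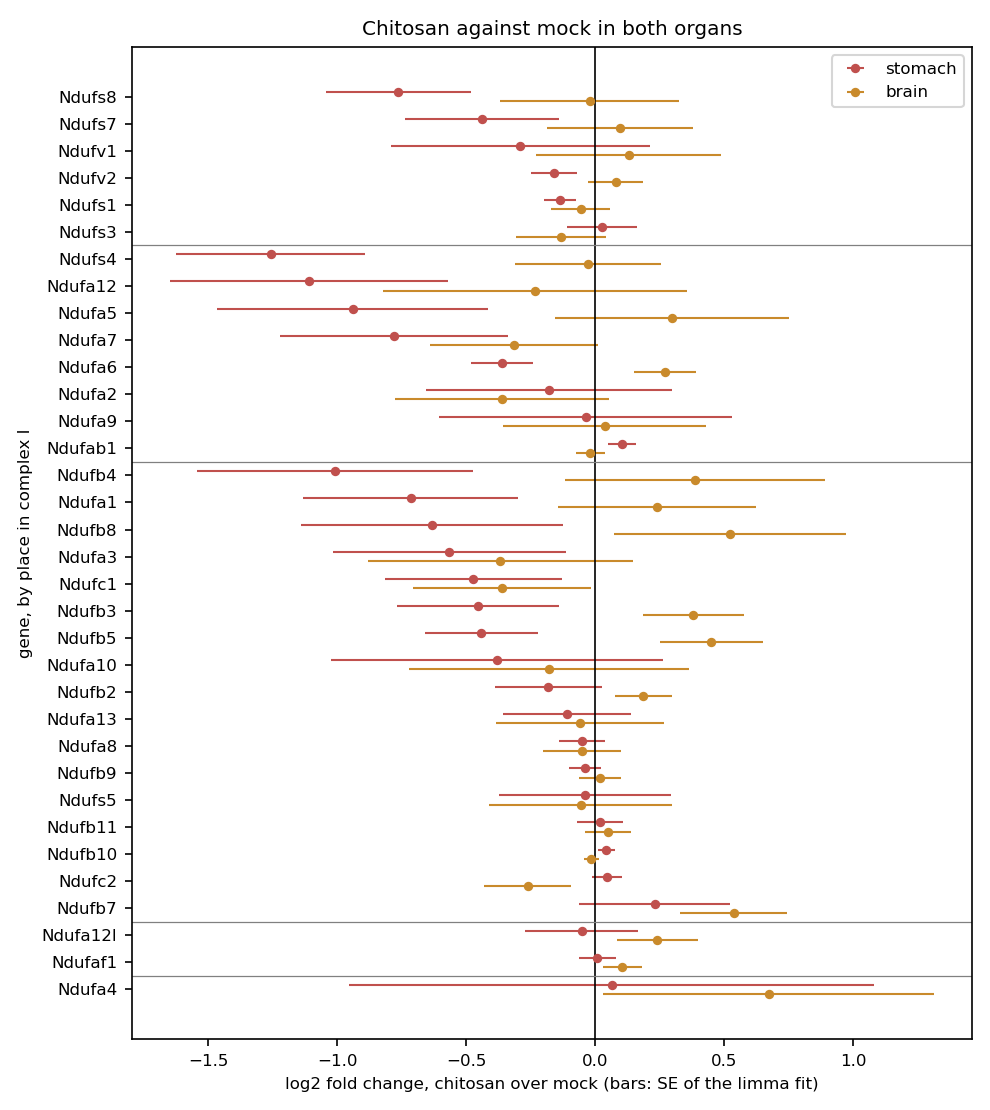
Points are log2 fold changes of chitosan over mock in the stomach and in the brain for the 34 Nduf genes, grouped from top to bottom by place in complex I and ordered by the stomach value, and bars are standard errors of the limma fit. Stomach values lie below 0 for 26 genes and brain values on both sides of 0, and none was called in either organ.

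**Figure D4:**
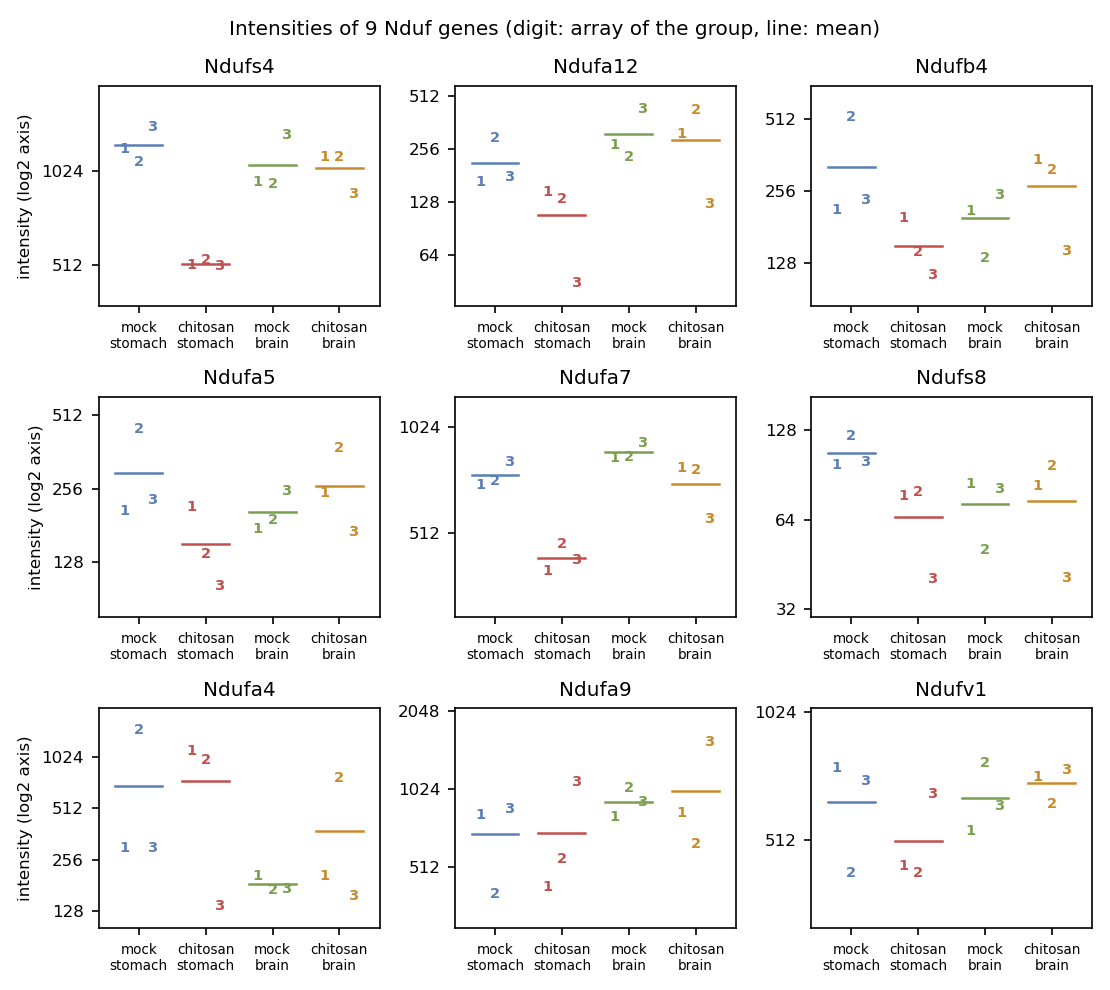
Intensities on a log2 axis for 9 Nduf genes, where each digit is an array of the group and the line is the group mean. Ndufs4 and Ndufa7 separate in the stomach with close arrays, whereas Ndufa12, Ndufb4, Ndufa5 and Ndufs8 carry a high mock array 2 or a low chitosan array 3, and Ndufa4 has values from 136.7 to 1463 within the stomach.

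Ndufa4 differed from the other Nduf genes. Its stomach intensities were 298.7, 1463 and 298.1 in mock and 1106, 982.4 and 136.7 in chitosan mice, so both groups held high and low arrays and the log2 fold change was 0.06 (SE 1.02). Without mock array 2 and chitosan array 3 it was 1.80 (SE 0.24, limma adjusted p = 0.020). In the brain the values were 205.8, 170.2 and 173.2 in mock and 205.8, 764.7 and 155.8 in chitosan mice, and the single high array gave a log2 fold change of 0.67 (SE 0.64).

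Leaving out mock stomach array 2 and chitosan stomach array 3, a choice made after their values were seen, moved the median of the 34 genes from -0.18 to -0.02 and the number of negative genes from 26 to 19. The fit of the remaining 4 arrays called 2.06% of probes and 3 of 34 Nduf genes. Ndufs4 was lower with -1.34 (SE 0.21, limma adjusted p = 0.034), and Ndufa4 was higher, as given above. Ndufb7, a membrane arm subunit on the side of the intermembrane space, was higher with 0.77 (SE 0.08, adjusted p = 0.014), although it was dim, with 46.0 and 46.3 on the mock arrays kept and 76.3 and 81.5 on the chitosan arrays kept. Ndufa9 and Ndufv1 moved from -0.04 and -0.29 to -0.78 (SE 0.25) and -0.75 (SE 0.24), so that the matrix arm genes Ndufs4, Ndufa7, Ndufa9 and Ndufv1 had the 4 lowest values. With the number of distinct intensities as a covariate in a model of 12 arrays, which called 1.72% of probes in the stomach, Ndufs4 was lower (-1.18, SE 0.22, adjusted p = 0.028), Ndufb7 was higher (0.79, SE 0.15, adjusted p = 0.031), and the median was 0.00. Without the intensity trend, a fit that called 0.0969% of probes, Ndufs4 alone of the 34 genes was called (adjusted p = 0.033).

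**Figure D5:**
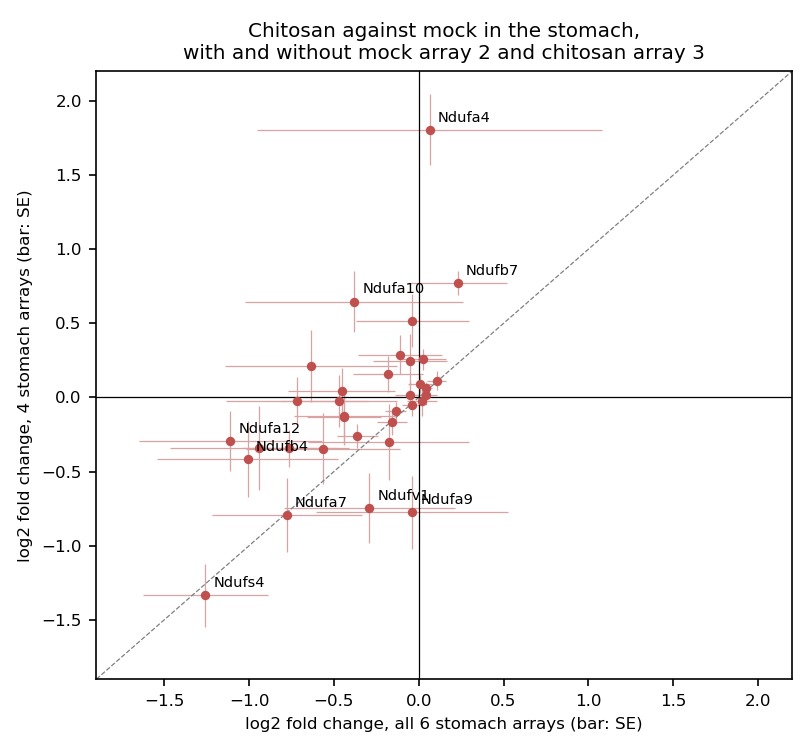
Log2 fold changes of chitosan over mock in the stomach for the 34 Nduf genes, with all 6 arrays on the x axis and without mock array 2 and chitosan array 3 on the y axis. Bars are standard errors and the dashed line marks equal values. Ndufs4 and Ndufa7 stay near the line, Ndufa12 and Ndufb4 lie nearer to 0 on the y axis, and Ndufa4 moves from 0.06 to 1.80.

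Cell type markers of the stomach differed between the same groups. Of 16 parietal cell markers 10 were lower with chitosan and 6 higher (median log2 fold change -0.12), and their summed intensity was 3909 to 4238 in mock and 1805 to 2094 in chitosan mice. Atp4a, the catalytic subunit of the gastric proton pump, had means of 549.7 and 113.1. Of 6 chief cell markers 4 were lower (median -0.09, summed 3281 to 3889 and 649 to 703), with Pgc, the precursor of pepsin C, at 2300 and 243, and of 10 mucous cell markers 9 were lower (median -0.25, summed 5163 to 12558 and 974 to 2911). In the mock stomach only 9 of the 16 parietal, 2 of the 6 chief and 5 of the 10 mucous cell markers were above the dim level. Smooth muscle markers were higher in 11 of 12 cases (summed 10904 to 11700 and 16760 to 21155), and forestomach squamous markers in 10 of 12 (summed 26480 to 29723 and 29600 to 31052). Of 12 pancreatic acinar markers only 1 was above the dim level, and their sum was 17195 to 20634 in mock and 3308 to 6498 in chitosan mice. No gene of these lists was called by limma in the stomach, and their part in the Nduf values was not tested.

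The medians of the lists of other respiratory genes were also negative in the stomach, though most lists held genes of both signs, with 0 called in each list. The median log2 fold change was -0.10 for 6 genes of complex II (6 negative), -0.19 for 10 of complex III (7 negative), -0.40 for 18 of complex IV (11 negative) and -0.17 for 11 of complex V (9 negative). Cox7a2, which encodes a cytochrome c oxidase subunit, had means of 232.8 and 81.1 in mock and chitosan stomach with a log2 fold change of -1.58 (SE 0.37), and Atp5f1, of the stalk of ATP synthase, had 320.4 and 131.4 with -1.40 (SE 0.51). The 15 other complex I assembly factors had a median of -0.07 (12 negative). Among them Ndufaf3, listed as 4733401H18Rik, was the one furthest from 0, with means of 293.6 and 147.1 and a log2 fold change of -1.01 (SE 0.43, limma adjusted p = 0.853). The 11 other mitochondrial genes, among them the citrate synthase gene Cs and the channels Vdac1 to Vdac3, had a median of -0.17 (9 negative).

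In the brain, Nduf genes lay on both sides of 0. The log2 fold change was positive for 18 and negative for 16 of the 34, with a median of 0.03 against -0.01 over all probes. By limma 0 genes and 0% of probes were called, at an unadjusted p under 0.05 there was 1 higher gene (Ndufb7) and 0 lower ones, where 3.39% of probes were higher at that limit, and the methods' t-test called 0. The model of all 12 arrays called 0.01% of probes and 0 Nduf genes. The chitosan arrays lay wholly above or below the mock arrays for 2 of 34 genes and for 12.1% of named genes. These were Ndufb7, at 44.3, 40.6 and 44.0 in mock and 62.1, 86.4 and 45.0 in chitosan mice, and Ndufa7, at 835.8, 841.3 and 920.8 against 780.8, 772.2 and 558.6 (log2 fold change -0.31, SE 0.33).

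After Ndufa4, the largest values of the brighter genes in the brain belonged to 5 subunits. Ndufb8, of the membrane arm, had 70.3, 46.0 and 101.7 in mock and 109.0, 168.7 and 53.0 in chitosan mice, a log2 fold change of 0.52 (SE 0.45). Ndufb4 had 211.7, 134.4 and 245.5 against 346.2, 314.3 and 143.5, or 0.39 (SE 0.50). In both genes chitosan array 3 lay below 2 of the 3 mock arrays while the other chitosan arrays lay above all 3. Ndufa3 of the membrane arm had 339.7, 366.8 and 391.2 in mock and 371.7, 391.2 and 155.8 in chitosan mice, or -0.37 (SE 0.51). Ndufc1, of the membrane arm, had 118.1, 110.8 and 122.4 against 107.6, 132.1 and 53.0, or -0.36 (SE 0.35), and Ndufa2, a thioredoxin-like subunit of the matrix arm, had 690.7, 802.2 and 578.5 against 634.7, 648.2 and 367.1, or -0.36 (SE 0.42). In these 3 genes chitosan array 3 was the lowest of the organ. With distinct intensities as a covariate, 1.55% of probes and 3 Nduf genes were called in the brain: Ndufa12 (-1.60, SE 0.33, limma adjusted p = 0.046) and Ndufs5, a membrane arm subunit facing the intermembrane space (-1.06, SE 0.20, adjusted p = 0.034) as lower, and Ndufa9 (1.12, SE 0.24, adjusted p = 0.048) as higher. The first fit had given -0.23, -0.06 and 0.04 for them. With the covariate 28 of 34 genes were negative with a median of -0.29, whereas without chitosan array 3 of the brain 25 were positive with a median of 0.16. Distinct intensities did not overlap between mock and chitosan brain arrays, so the covariate values rest on a slope carried beyond each group.

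The sums of the brain markers overlapped between the treatments. They were 6897 to 9775 and 6533 to 9726 for 13 neuron markers, 801.8 to 894.2 and 674 to 1047 for 8 astrocyte markers, and 1566 to 1794 and 1330 to 2002 for 8 oligodendrocyte markers, in mock and chitosan mice.

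Between the organs of mock mice, the balance of the Nduf genes was even in the first fit and not in the fit with distinct intensities as a covariate. In the first fit the difference of stomach over brain was positive for 17 and negative for 17 genes with a median of 0.02. Limma called 0 of the 34 genes, although it called 6.38% of all probes. Above the dim level, it called 468 of 2708 named genes as higher in the stomach and 547 as lower. Of the 18 brighter Nduf genes it called 0. At an unadjusted p under 0.05 there were 4 genes higher in the stomach (Ndufa4, Ndufa6, Ndufb5 and Ndufs8) and 0 lower, where 8.87% of probes were higher, and the methods' t-test called 0. Ndufa6, which binds the acyl carrier protein Ndufab1, came closest with 69.0, 85.5 and 67.6 in the stomach and 48.6, 58.2 and 53.5 in the brain, a log2 difference of 0.47 (SE 0.12, limma adjusted p = 0.074) that the model of all 12 arrays called (adjusted p = 0.045, with 5.67% of probes). Ndufb5 had 0.62 (SE 0.17, adjusted p = 0.098), and it was called without mock stomach array 3 (0.80, adjusted p = 0.024, with 4.75% of probes).

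The 4 largest differences toward the stomach, among genes above the dim level in 1 of both groups, were 1.47 (SE 0.63) for Ndufa4, 0.95 (SE 0.42) for Ndufb8, 0.68 (SE 0.35) for Ndufa1 and 0.64 (SE 0.44) for Ndufb4. Ndufa1, an X-linked membrane arm subunit, had 111.8, 209.5 and 106.5 in the stomach and 86.8, 58.2 and 119.9 in the brain, which overlap. Toward the brain, Ndufa10, a membrane arm subunit that resembles nucleoside kinases, had -0.60 (SE 0.38), Ndufa12 had -0.54 (SE 0.38), Ndufa9 had -0.47 (SE 0.34) and Ndufa2 had -0.38 (SE 0.28), and none of these was called. For Ndufa10 the intensities were 129.4, 257.2 and 131.8 in the stomach and 225.2, 200.2 and 335.8 in the brain. Ndufa9 had 810.6, 402.7 and 856.9 against 799.8, 1032 and 908.6. For Ndufa10 mock stomach array 2 was the array that overlapped with the brain, and for Ndufa9 it was the lowest of the 6. With distinct intensities as a covariate, which called 7.92% of probes, Ndufa10 (-2.20, SE 0.39), Ndufa12 (-2.03, SE 0.35) and Ndufs5 (-1.27, SE 0.21) were called as lower in the stomach, with limma adjusted p values of 0.0049, 0.0040 and 0.0028. In that fit 27 of 34 genes were lower in the stomach, with a median of -0.31. The 4 genes given above as toward the stomach changed sign in it. They had -0.94 (Ndufa4), -0.56 (Ndufb8), -0.50 (Ndufa1) and -0.36 (Ndufb4). Ndufa9 changed sign as well, to 0.71, and none of these was called. Distinct intensities numbered 632, 884 and 579 on the mock stomach arrays and 357, 308 and 382 on the mock brain arrays. They did not overlap, so here too the covariate values rest on a slope carried beyond each group. The dim second probe of Ndufa10 (mean 44.2) was higher in the stomach in the first fit, with 0.33 (SE 0.08) and no overlap. The model of all 12 arrays called that probe (limma adjusted p = 0.022). The dim second probe of Ndufb8 (mean 56.6) was called as higher in the first fit, with 0.52 (SE 0.08, limma adjusted p = 0.0077). Of the other respiratory lists, limma called 1 complex III gene, 1 complex IV gene and 2 of 15 other complex I assembly factors as higher and 4 complex IV genes and 1 complex V gene as lower in the stomach, and Snap25, the synaptic marker, had a mean of 80.5 in the stomach and 4960 in the brain.

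The chitosan effect in the stomach minus that in the brain was negative for 28 of 34 Nduf genes with a median of -0.27, against 0.02 over all probes. By limma 0 genes and 0.251% of probes were called, and the methods' t-test called 0. The effects of the 2 organs share no arrays. At an unadjusted p under 0.05 there were 3 lower genes, Ndufa6 (-0.63, SE 0.17, adjusted p = 0.237), Ndufs4 (-1.23, SE 0.34, adjusted p = 0.249) and Ndufb5 (-0.89, SE 0.33, adjusted p = 0.435), where 4.69% of probes were lower. Ndufb4 and Ndufa5 had larger values with larger errors, -1.40 (SE 0.68) and -1.24 (SE 0.63). Without the 2 stomach arrays the median was -0.05 and that of Ndufs4 was -1.31 (SE 0.36, adjusted p = 0.190). With distinct intensities as a covariate, 3.22% of probes and 2 Nduf genes were called, Ndufa9 (-1.98, SE 0.37, adjusted p = 0.020) and Ndufs5 (1.78, SE 0.31, adjusted p = 0.016). In that fit the balance was turned, with 25 of 34 genes positive, 9 negative and a median of 0.35.

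Below the dim level in all 4 groups were 13 genes: Ndufv2, Ndufs1, Ndufs3, Ndufa8, Ndufab1, Ndufb2, Ndufb7, Ndufb9, Ndufb10, Ndufb11, Ndufc2, Ndufaf1 and Ndufa12l. Ndufs1, Ndufs3 and Ndufv2 among them encode core subunits of the complex, and at such intensities these arrays cannot show whether an RNA was absent. Of 7 genes with 2 probes, the dimmer probe passed the level by its mean in Ndufa5 alone (mean 98.7 over the 12 arrays). In the others its mean was 39.2 to 56.6. Many complex I genes have processed pseudogenes, and the probe sequences were not used here, so cross-hybridization to such copies could not be examined.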

How the data were processed

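The deposited values are linear Cy5 intensities from 12 Mouse Whole Genome OneArrays. For these intensities the authors took off the background around each spot, discarded control probes and spots whose signal-to-noise ratio was negative, and normalized with limma (version and method not given in the sources used here). The arrays share 1 highest value and have close medians, and no value was missing. Arrays give no counts, so the number of arrays limits the precision.

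No further normalization was applied to the log2 values. With limma 3.58.1 in R 4.3.3, a linear model with empirical Bayes moderation and an intensity trend was fitted to the 6 arrays of each comparison, or to all 12 for the difference between organs, over 29922 probes with Benjamini-Hochberg adjustment (threshold 0.05). The code was tested on simulated data. Probes were named from the platform annotation, which gives 1 symbol for 21020 probes, several for 0 and none for 8902.

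The members, the gene lists and the markers were chosen with earlier results of these data known. Values are given for the 6 largest chitosan effects in each organ and the 4 largest organ differences in each direction among genes above 68.7, the 3 brightest genes, the 3 largest differences between organs in the effect, genes at 2-fold, Ndufa4, genes whose probes are both bright, and up to 2 genes of each other list. Ndufa6, Ndufb5, Ndufb7, Ndufs5, Ndufs7, Ndufv1, Nrf1 and Gabpa were added with their values known. As alternatives, the fits were run as 1 model of 12 arrays, without the trend, as the methods' t-test with equal variances, after centering, after a second quantile normalization, with a floor at the 20th percentile, over brighter probes, over brighter members, on gene means, with replicate numbers as a block, with distinct intensities as a covariate and without each array. Leaving out both mock stomach array 2 and chitosan stomach array 3 was added after seeing the data.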

Additional observations from a re-analysis of the deposited data

How the results depend on the processing

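The medians over the Nduf genes moved by less than the spread between arrays (1 SD of the array medians, 0.36 to 0.41 on the log2 scale) under every alternative but 1: with distinct intensities as a covariate, the median difference of the chitosan effect between organs was 0.35 in place of -0.27. The number of genes called, 0 in each comparison, became 1 in the stomach without the intensity trend, 2 in the stomach, 3 in the brain, 3 between organs of mock mice and 2 for the difference of the effect with that covariate, 3 in the stomach without mock array 2 and chitosan array 3, and 1 between organs in the model of 12 arrays. With single arrays left out, the counts were 0 to 0 in both chitosan comparisons and 0 to 1 between the organs. The median in the stomach then ranged from -0.32 (without chitosan array 1) to -0.11 (without mock array 2).

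In the brain, the log2 fold change changed sign with the covariate for Ndufa4 (-1.55), Ndufb4 (-0.53) and Ndufb8 (-0.86). With single arrays left out it ranged from -0.027 (without chitosan array 2) to 1.12 (without chitosan array 3) for Ndufa4, and, for the same 2 arrays, from -0.60 to 0.062 for Ndufa3 and from -0.63 to 0.027 for Ndufc1. The 6 stomach genes with the largest effects kept their sign in all alternatives run, but with the covariate Ndufa12 moved from -1.11 to -0.075, Ndufb4 from -1.01 to -0.31, Ndufa5 from -0.94 to -0.24 and Ndufs8 from -0.76 to -0.13. The cause was not tested. With the replicate number as a block, 0 Nduf genes were called in each comparison and the medians of -0.18 in the stomach and 0.03 in the brain were the same. The numbers are not known to pair the arrays. Deviations of same-numbered mock and chitosan arrays, which came from different mice, correlated at -0.62 to 0.68 in the stomach and -0.50 to 0.03 in the brain. Between the organs, same-numbered arrays correlated at -0.40 to -0.10 in mock and 0.21 to 0.70 in chitosan mice. Differently numbered ones correlated at -0.21 to 0.35 and at -0.72 to 0.69. Whether a mouse gave both organs was not tested, and the main fits treat all arrays as independent. Dim probes limit what could be seen for 16 of the 34 genes.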
